A study of Schizosaccharomyces pombe with 6 samples.

Results

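The genes described here are 50 protein genes of the small (40S) subunit of the cytosolic ribosome of fission yeast, *Schizosaccharomyces pombe*, out of 7268 genes counted. They were chosen by their systematic identifiers, and all 50 were found and passed the filter on low counts. They encode 32 different proteins: 18 proteins are made from 2 listed genes each (36 genes) and 14 from 1 listed gene. Another 8 annotated small-subunit genes (*rps402*, *rps1202*, *rps1402*, *rps1601*, *rps2402*, *rps2502*, *ubi5* and *cpc2*) are in the counts but not in the list, and are given beside it. RNA-seq was performed on 6 cultures, 2 biological replicates each of a *saf5* deletion strain (*Δsaf5*), a *cwf12* deletion strain (*Δcwf12*) and the wild type strain 972 (WT), all untreated and grown in rich YE5S medium at 30 °C to an OD600 of 0.5. Saf5 is the fission yeast pICln, which helps to load Sm proteins for the spliceosome, and Cwf12 (Isy1 in budding yeast) belongs to the spliceosome's Prp19 complex. The labels name each deletion as a single strain and give no further alleles.

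The small subunit binds mRNA, scans to the start codon and decodes it, and each subunit holds 1 copy of each of its proteins next to the 18S rRNA. Growing yeast cells spend a large part of their mRNA on ribosomal protein genes, and transcription of these genes rises and falls as a block with growth rate, nutrients and stress. In fission yeast many of their promoters hold a HomolD box, which stands in the place of a TATA box, and some a HomolE box upstream of it. Many of the genes also hold introns, often near the start of the coding sequence, so their mRNAs depend on the spliceosome.

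The deleted genes were examined first. In *Δcwf12*, *cwf12* was left with 41 and 32 counts, against 556 and 531 in WT. Counts on *saf5* did not disappear: they were 220 and 249 in libraries labelled *Δsaf5*, against 323 and 234 in WT. Each direction given below for *Δsaf5* therefore rests on the labels, and the libraries are called "labelled *Δsaf5*". Library totals ran from 9113139 to 12054198 counts. Values per library are counts per 1000000 counts of the library (CPM) after TMM scaling, whose factors lay between 0.95 and 1.10. A gene was called at an adjusted p under 0.05 in edgeR's quasi-likelihood test with Benjamini-Hochberg adjustment over 6018 genes.

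Sequences of promoters and introns show how these genes are built. The letters CAGTCACA of HomolD were searched on both strands in the 250 bases before and 50 bases after each annotated gene start. They were found in 31 of the 50 genes (62%), against 2.68% of 5105 coding genes. Counted from the start, the first base lay between positions -66 and -43, at a median of -51. The letters ACCCTACCC of HomolE, which do not overlap those of HomolD, were found in 18 of the 50 (36%), against 1.31% of coding genes, between positions -84 and -59. Both were found in 10 genes and neither in 11. HomolD without its last letter (CAGTCAC, which the full box contains) was found in 46 of the 50 genes (92%), against 4.72% of coding genes, and in 10 of the 11 genes with neither exact box. The large-subunit genes held HomolD in 54 of 83 and HomolE in 20 of 83.

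The 100 bases before the annotated start are given for 3 paralogue pairs. Among the listed pairs, the balance between the *rps26* copies differed most from WT in both deletions. The *rps30* pair came next in libraries labelled *Δsaf5*, and the *rps22* pair differed most between the deletions. Capitals mark HomolD (CAGTCACA, or TGTGACTG where the match is on the other strand) and HomolE (GGGTAGGGT on the other strand).
rps2601: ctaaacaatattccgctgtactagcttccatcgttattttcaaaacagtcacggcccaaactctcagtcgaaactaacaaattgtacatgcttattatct
rps2602: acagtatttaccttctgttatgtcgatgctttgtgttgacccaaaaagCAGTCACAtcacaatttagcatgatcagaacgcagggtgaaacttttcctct
rps3001: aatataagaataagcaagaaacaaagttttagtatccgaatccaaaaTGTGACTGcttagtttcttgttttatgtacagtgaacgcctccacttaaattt
rps3002: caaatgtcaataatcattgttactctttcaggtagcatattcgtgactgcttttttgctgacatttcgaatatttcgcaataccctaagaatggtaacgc
rps2201: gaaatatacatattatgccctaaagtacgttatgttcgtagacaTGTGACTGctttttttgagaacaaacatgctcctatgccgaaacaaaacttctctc
rps2202: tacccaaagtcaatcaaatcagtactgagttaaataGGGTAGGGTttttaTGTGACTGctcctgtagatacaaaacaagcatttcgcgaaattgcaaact
They are read 5′ to 3′ on the strand of each gene from RefSeq's ASM294v3 genome with its own annotation, as the counts were made on ASM294v2. The windows lie at chrI:236028-236127, minus strand (*rps2601*), chrI:2793485-2793584, minus strand (*rps2602*), chrI:4890220-4890319, plus strand (*rps3001*), chrII:2349452-2349551, minus strand (*rps3002*), chrI:1162659-1162758, minus strand (*rps2201*) and chrI:1512391-1512490, minus strand (*rps2202*). In the *rps26* and *rps30* pairs only one copy holds the exact letters of HomolD (the other holds CAGTCAC without the last letter), whereas both *rps22* copies hold them and *rps2202* alone also holds HomolE. The match is a description of the sequence, and binding was not measured.

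An intron was annotated in 27 of the 50 genes, 1 in each of 22 genes and more than 1 in 5 genes, which made 33 introns of 38 to 288 nt with a median of 82 nt. For comparison, 48.3% of coding genes held an intron, and the median of their 5222 introns was 56 nt. The sequence GTAAGT, a common 5′ splice site in fission yeast, opened 13 of the 33 introns (39.4%) and 27.5% of all introns of coding genes. The introns of the *rps30* pair and of *rps2602* are given below with the first 6 and the last 3 bases in capitals, since the copy with fewer introns gained in the *rps30* pair and the copy with more introns gained in the *rps26* pair.
rps3001 intron: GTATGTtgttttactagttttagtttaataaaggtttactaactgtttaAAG
rps3002 intron 1: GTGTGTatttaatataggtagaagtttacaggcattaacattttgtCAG
rps3002 intron 2: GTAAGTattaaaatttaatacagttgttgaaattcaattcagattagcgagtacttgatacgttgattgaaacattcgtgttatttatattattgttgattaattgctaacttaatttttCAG
rps2602 intron: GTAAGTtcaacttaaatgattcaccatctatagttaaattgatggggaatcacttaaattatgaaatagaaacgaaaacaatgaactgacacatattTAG
They lie in coding sequence at chrI:4890374-4890425, chrII:2349348-2349396, chrII:2349096-2349218 and chrI:2793253-2793352 of ASM294v3. The intron of *rps2202* (147 nt, 5′ splice site cagGTATGA, with the intron's bases in capitals) was the single one of the 33 that lies before the start codon. The sources used here do not say if reads in introns were counted, so the values below are gene counts and not splicing efficiencies.

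By level per length in WT, the 50 genes ranked between 4 and 197 among the 4950 coding genes tested. Their median was 1921 CPM per kb of listed length, against 38.6 CPM per kb over the coding genes tested. The highest level was that of *ubi3*, which encodes ubiquitin fused to Rps31, with 4513 CPM per kb in libraries labelled *Δsaf5*, 5602 in *Δcwf12* and 5635 in WT (means, n = 2 each). After it came *rps102*, *rps20*, *rps7* and *rps23* in WT. The WT libraries of *rps20* (3901 and 3749 CPM per kb) and of *rps7* (3811 and 3602) overlapped, as did those of *rps7* and *rps23* (3708 and 3378), so the order of these 3 is not set beyond the spread. The lowest was *rps1401*, with 532 CPM per kb in libraries labelled *Δsaf5*, 669 in *Δcwf12* and 818 in WT, and in WT its libraries overlapped those of *rps3001*. The ratio between the highest and the lowest level was 8.48 in libraries labelled *Δsaf5*, 8.37 in *Δcwf12* and 6.89 in WT. The level of *rps101* per length is understated, since its listed length (1791 nt) is 1.95 times its annotated span. That holds to a lesser degree for *rps2201* (699 nt listed, 456 nt annotated), *rps3001* (644 and 510 nt) and *rps2802* (583 and 462 nt). The listed lengths of genes with an intron also exceed those of their exons, as in *rps27* (712 and 422 nt). This can lower their levels beside those of genes without an intron.

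**Figure D1:**
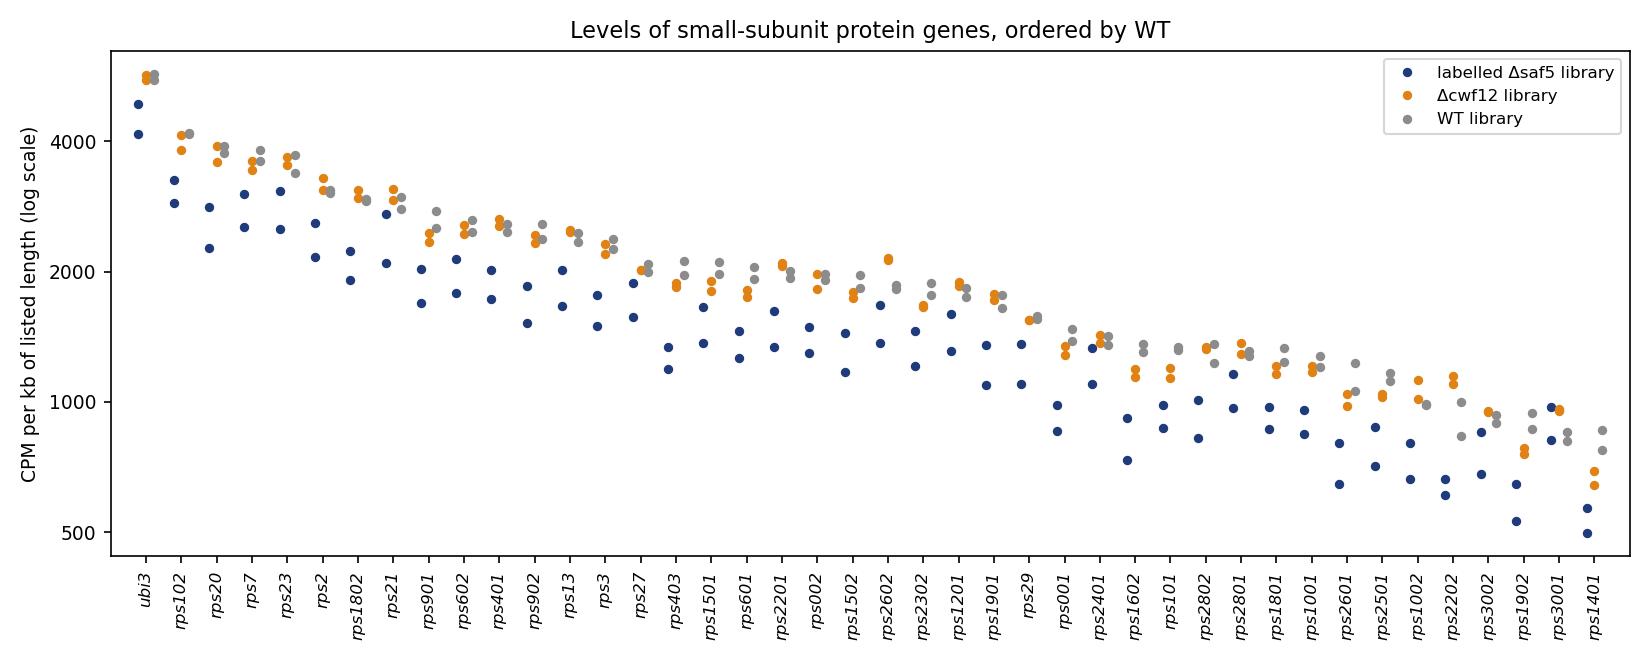
Level of 42 of the 50 genes in each library, in CPM per kb of the listed gene length on a log axis, with the genes ordered by their WT mean. Each dot is a library (2 per strain). *ubi3* was highest and *rps1401* lowest in every strain. The libraries labelled *Δsaf5* lay below all libraries of both other strains in 41 of the 42 genes (all but *rps3001*). Over all genes tested they lay below both WT libraries in 35.6% and below both *Δcwf12* libraries in 40.2%, each strain taken alone.

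The first comparison asked how the genes of the small subunit were expressed in the *saf5* deletion strain. They were lower in libraries labelled *Δsaf5* than in WT nearly throughout: 45 of the 50 genes were lower and 0 higher, against 25.5% and 24.7% of all genes tested. The count of higher genes was 0 in edgeR at an unadjusted p under 0.05 too, and 0 in DESeq2. The median log2 fold change of the 50 was -0.44, or 0.735 of the WT level, beside a median of 0.02 over all genes tested. The range ran from -0.69 to 0.11, so no gene reached a 2-fold change. Under the stricter rule that also asks for a 2-fold change, 2.49% of all genes were lower and 6.2% higher. In 49 of the 50 genes both libraries labelled *Δsaf5* lay below both WT libraries, which was so for 35.6% of all genes.

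The replicates labelled *Δsaf5* differed in the size of this decrease. All 50 genes had fewer CPM in replicate 1 than in replicate 2, at a median ratio of 0.832, whereas the median ratio of all genes was 0.993. Since the genes moved together between replicates, their calls are not independent of each other. Without replicate 1 the median was -0.33 and without replicate 2 it was -0.58, beside 0.01 over all genes in both. Scaling to library totals in place of TMM moved the median of all genes to 0.17 and that of the 50 genes to -0.30. Their median minus that of all genes was -0.46 under both scalings, which a change of scaling could hardly alter, since it moves all genes nearly alike.

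As a share of all counts of a library, the 50 genes took 5.87% and 6.57% in libraries labelled *Δsaf5*, 7.50% and 7.42% in *Δcwf12* and 7.91% and 7.32% in WT. The means were 6.22% ± 0.493 in libraries labelled *Δsaf5*, 7.46% ± 0.0552 in *Δcwf12* and 7.61% ± 0.418 in WT (SD, n = 2 each). Both libraries labelled *Δsaf5* lay below the other 4, and *Δcwf12* lay between the WT libraries. The smallest p that an exact test of 2 against 2 libraries allows is 0.333, so no p is given. The 83 large-subunit genes took 9.02% ± 0.74 in libraries labelled *Δsaf5*, 10.8% ± 0.0329 in *Δcwf12* and 11.2% ± 0.597 in WT (SD, n = 2 each). Of the counts on both subunits the 50 genes took 40.8% in libraries labelled *Δsaf5*, 40.9% in *Δcwf12* and 40.5% in WT (means, n = 2 each). The share of the 10 genes with the most reads outside the list, mostly glycolytic genes such as *tdh1* and *fba1*, was 10.9% ± 0.407 in libraries labelled *Δsaf5*, 8.61% ± 0.211 in *Δcwf12* and 6.91% ± 1.48 in WT (SD, n = 2 each). Without these 10 genes in the total, the 50 genes took 6.98% ± 0.585 in libraries labelled *Δsaf5*, 8.17% ± 0.0792 in *Δcwf12* and 8.18% ± 0.319 in WT (SD, n = 2 each). Counts are shares of a library, so fewer mRNAs of these genes per cell and more RNA of other genes cannot be told apart.

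**Figure D2:**
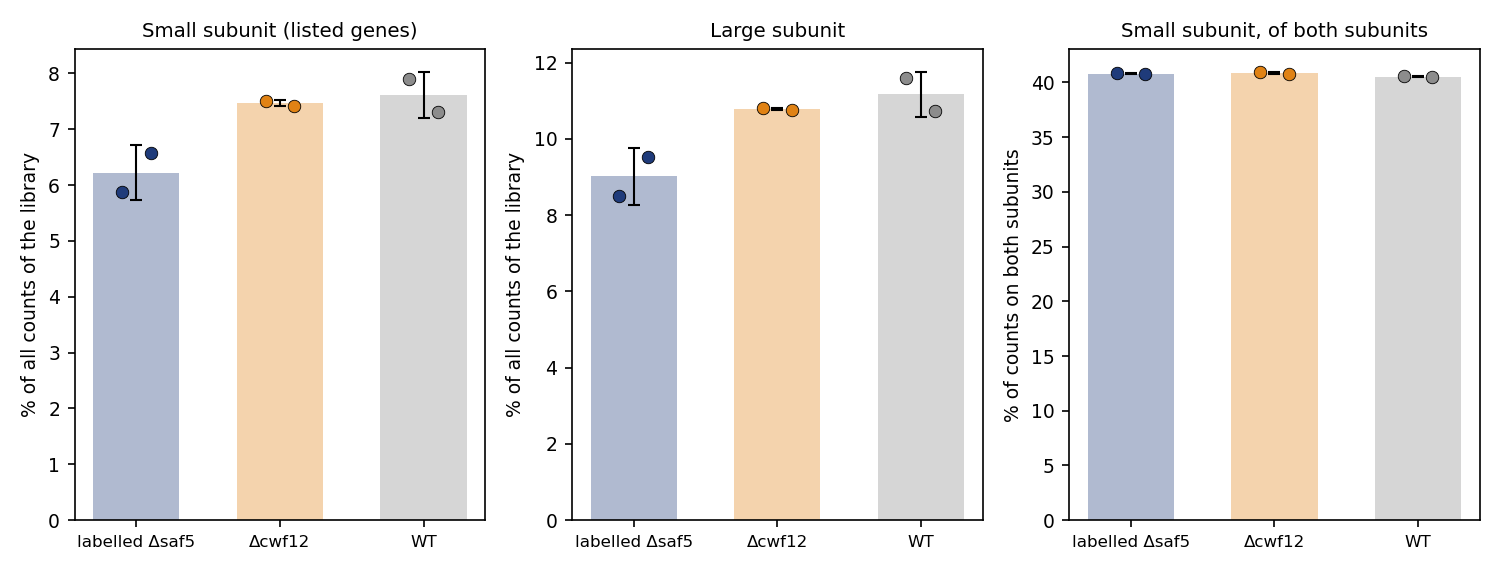
Share of counts on the 50 small-subunit genes and on the 83 large-subunit genes, in percent of all counts of a library, and share of the small-subunit genes among counts on both subunits. Bars are means, error bars SD, dots the 2 libraries of each strain; the small-subunit share was 6.22% in libraries labelled *Δsaf5*, 7.46% in *Δcwf12* and 7.61% in WT, while the last panel stayed between 40.5% and 41.0%.

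The 5 genes with the largest decrease were *rps403*, *rps1602*, *rps2601*, *rps001* and *rps1902*. *rps403* (SPAC959.07), a copy of Rps4 of the subunit's body, had 1266 and 1427 CPM in libraries labelled *Δsaf5*, 2003 and 1959.7 in *Δcwf12* and 2254 and 2094 in WT (log2 fold change against WT -0.69 ± 0.10, edgeR adjusted p = 0.00020; ± is the standard error here and below). *rps1602* (SPAC664.04c) encodes Rps16, whose tail reaches the P-site tRNA, and had 478 and 599.6 CPM in libraries labelled *Δsaf5*, 775 and 745 in *Δcwf12* and 888 and 849 in WT (-0.69 ± 0.11, edgeR adjusted p = 0.00021). *rps2601* (SPAC806.03c) encodes Rps26, which lines the mRNA exit channel, and had 369 and 459 CPM in libraries labelled *Δsaf5*, 559 and 596 in *Δcwf12* and 702 and 607 in WT (-0.66 ± 0.11, edgeR adjusted p = 0.00039). In these 3 genes the libraries labelled *Δsaf5* lay below all others, and the *Δcwf12* libraries lay between them and WT. *rps001* (SPBC685.06), for Rps0, which binds the back of the subunit late in its assembly, had 919.7 and 1056 CPM in libraries labelled *Δsaf5*, 1447 and 1377 in *Δcwf12* and 1585 and 1484 in WT (-0.64 ± 0.10, edgeR adjusted p = 0.00028). *rps1902* (SPBC649.02), for Rps19, needed for maturation of the 18S rRNA and mutated in Diamond-Blackfan anemia in humans, had 391 and 477 CPM in libraries labelled *Δsaf5*, 579 and 561 in *Δcwf12* and 695 and 639.6 in WT (-0.62 ± 0.10, edgeR adjusted p = 0.00029). The genes just inside and outside the 5, *rps1902* and *rps1401*, both stood at -0.62.

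At the other end, *rps3001* (SPAC19B12.04) was the exception among the 50. It encodes Rps30, a small basic protein near the mRNA entry, and had 526 and 628 CPM in libraries labelled *Δsaf5*, 619 and 613 in *Δcwf12* and 548 and 522 in WT (log2 fold change 0.11 ± 0.09, edgeR adjusted p = 0.35). The lower of the libraries labelled *Δsaf5* lay between the WT libraries, and the direction was the opposite without replicate 2 labelled *Δsaf5* (-0.025). Its annotated span overlaps *fcp1* on the other strand by 90 nt, and *fcp1* had 29.7% as many counts. *rps2401* and *rps27* were not called either. *rps2401*, for Rps24 of the body, had 826 and 999 CPM in libraries labelled *Δsaf5*, 1072 and 1024 in *Δcwf12* and 1066 and 1016 in WT (-0.19 ± 0.10, edgeR adjusted p = 0.14). *rps27*, for the zinc-binding Rps27, had 1119.8 and 1342 CPM in libraries labelled *Δsaf5*, 1437 and 1432 in *Δcwf12* and 1485 and 1422 in WT (-0.24 ± 0.10, edgeR adjusted p = 0.074). In both the libraries labelled *Δsaf5* lay below both WT libraries although the test was not passed. *rps3002*, the other copy for Rps30, had 337 and 420.4 CPM in libraries labelled *Δsaf5*, 469.6 and 469 in *Δcwf12* and 459.7 and 443 in WT and was called by a narrow margin (-0.25 ± 0.10, edgeR adjusted p = 0.048), which was lost under 6 of the 12 alternatives, among them leaving out replicate 1 labelled *Δsaf5* (-0.10) or replicate 1 of WT (-0.23). Also not called was *rps21* (-0.26 ± 0.12, edgeR adjusted p = 0.088), whose protein sits beside Rps0.

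**Figure D3:**
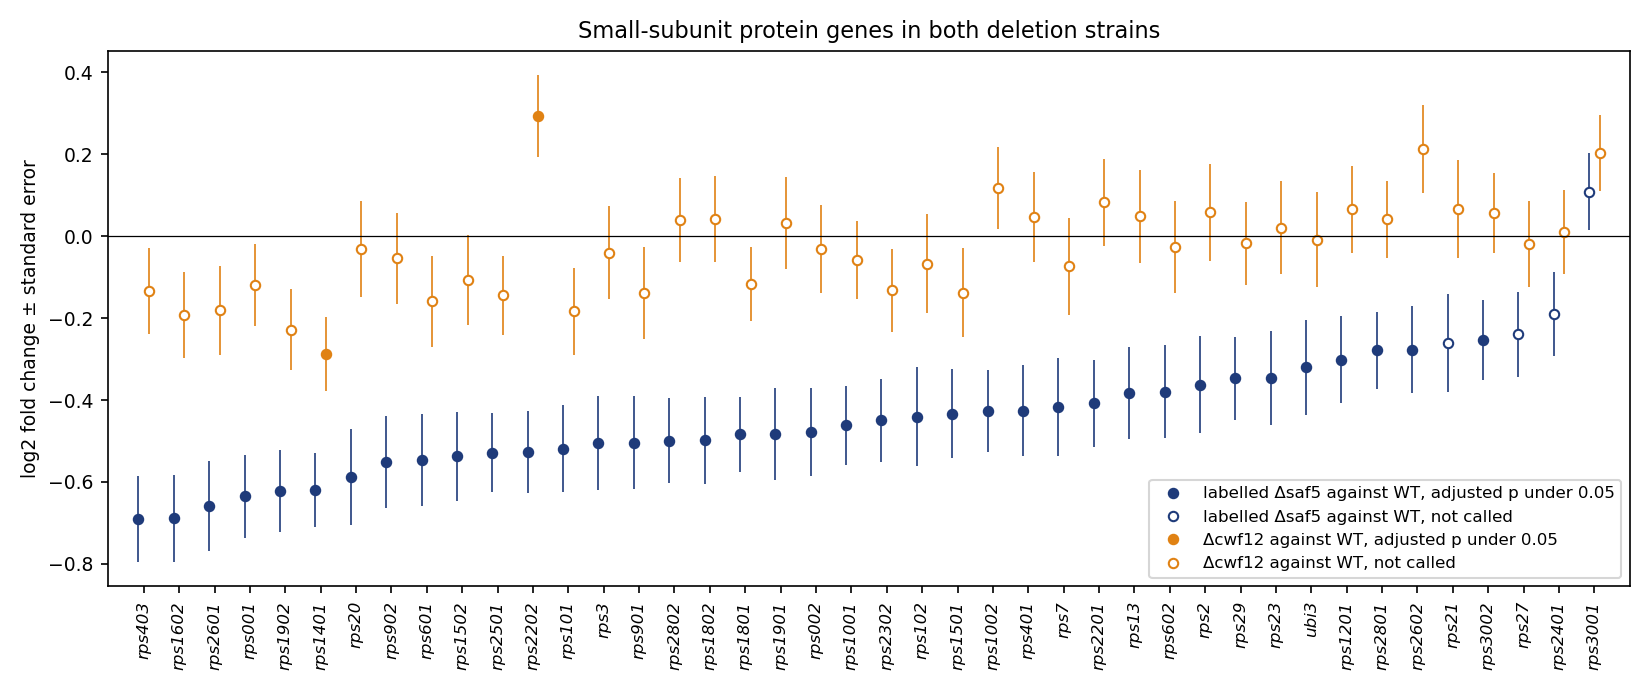
Log2 fold change against WT of 42 of the 50 genes in libraries labelled *Δsaf5* (dark blue) and in *Δcwf12* (orange), with standard errors from the edgeR fit of all 6 libraries, ordered by the dark blue values. Filled dots passed an adjusted p under 0.05: 38 of these genes lower in libraries labelled *Δsaf5*, and in *Δcwf12* *rps1401* lower and *rps2202* higher; both comparisons share the WT libraries.

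Arranged by their place in the subunit, genes of each region were among the 45 called lower in libraries labelled *Δsaf5*. At the decoding centre, the copies for Rps23 had log2 fold changes of -0.35 (*rps23*) and -0.45 (*rps2302*). Of the proteins of the head that touch the tRNAs, Rps18 stood at -0.48 (*rps1801*) and -0.50 (*rps1802*) and Rps15 at -0.43 (*rps1501*) and -0.54 (*rps1502*). Around the mRNA entry, *rps2* had -0.36 and *rps3*, whose protein forms part of the mRNA helicase of the subunit, had -0.51. Around the mRNA exit and the platform, *rps101* and *rps102* had -0.52 and -0.44, *rps1401* -0.62, and *rps2801* and *rps2802* -0.28 and -0.50. Each of these genes passed the test. Of them, only *rps2801* and *rps2802* were followed singly through the alternatives, so how firmly the other calls hold is not given gene by gene. The call of *rps2801* was lost under 3 of the 12 alternatives, among them library totals (-0.13) and leaving out replicate 1 labelled *Δsaf5* (-0.16).

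In the head and beak, *rps20*, whose protein is ubiquitinated when ribosomes collide in budding yeast and human cells, had -0.59, and *rps1001* and *rps1002* for Rps10 had -0.46 and -0.43. *rps1901* had -0.48, *rps1201* -0.30, *rps2501* -0.53, *rps29* -0.35 and *ubi3* -0.32. In the body, the copies for Rps6, the protein phosphorylated downstream of TOR signalling, had -0.55 (*rps601*) and -0.38 (*rps602*). The copies for Rps9 had -0.50 and -0.55, and those for Rps22 -0.41 and -0.53. *rps401* had -0.43, *rps7* -0.42, *rps13* -0.38 and *rps002* -0.48. Outside the body, *rps2602*, for Rps26 at the mRNA exit, had -0.28. All of these were lower at an adjusted p under 0.05 from edgeR. Only *rps401*, *rps601*, *rps602* and *rps2602* of them were followed singly through the alternatives, and the firmness of the other calls is not given gene by gene. The call of *rps2602* (adjusted p = 0.046) was lost under 5 of the 12 alternatives, among them the replicate block (-0.28), library totals (-0.13) and leaving out replicate 1 labelled *Δsaf5* (-0.14). Leaving out that library also ended the call of *rps602* (-0.26).

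In *Δcwf12*, by contrast, the small-subunit genes were near their WT level. Against WT, 1 gene of the 50 was higher and 1 lower, beside 25.5% and 25% of all genes tested, and the median log2 fold change was -0.02, beside -0.0049 over all genes. The range ran from -0.29 to 0.29, and the stricter 2-fold rule, met by 7.31% of all genes upward and 2.64% downward, was met by 0. The *Δcwf12* libraries lay above both WT libraries in 12 genes, below both in 18 and overlapped them in 20, while 38% of all genes lay above and 37.8% below.

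The gene called higher was *rps2202* (SPAC5D6.01), one of the copies for Rps22 and the one with an intron before its start codon. It had 496 and 541 CPM in libraries labelled *Δsaf5*, 895 and 937 in *Δcwf12* and 815 and 679.7 in WT (log2 fold change of *Δcwf12* against WT 0.29 ± 0.10, edgeR adjusted p = 0.027). The WT libraries were far apart for this gene, and the call was lost without replicate 1 or 2 of *Δcwf12* or replicate 2 of WT (log2 fold changes 0.32, 0.25 and 0.16). The gene called lower was *rps1401* (SPAC3H5.05c), for Rps14 of the platform, which had 318 and 363 CPM in libraries labelled *Δsaf5*, 444 and 412 in *Δcwf12* and 549.9 and 497 in WT (-0.29 ± 0.09, edgeR adjusted p = 0.018). All libraries of *Δcwf12* and all labelled *Δsaf5* lay below WT for it, and the call was lost without replicate 2 of *Δcwf12* (-0.25). Its whole annotated span overlaps *aar2* on the other strand, which had 26.7% as many counts.

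The next highest in *Δcwf12* were *rps2602* (log2 fold change 0.21 ± 0.11, edgeR adjusted p = 0.12) and *rps3001* (0.20). *rps2602*, the copy for Rps26 that holds an intron, had 965 and 1184 CPM in libraries labelled *Δsaf5*, 1514 and 1503 in *Δcwf12* and 1289 and 1315 in WT. In each of these genes both *Δcwf12* libraries lay above both WT libraries, but neither passed the test. The next lowest were *rps1902* (-0.23 ± 0.10, edgeR adjusted p = 0.073), *rps1602* (-0.19), *rps101* (-0.18) and *rps2601* (-0.18). *rps101*, for Rps1 of the platform, had 1557 and 1759 CPM in libraries labelled *Δsaf5*, 2150.4 and 2032 in *Δcwf12* and 2397 and 2354 in WT. These 4 were below both WT libraries and did not pass the test either.

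Set directly against each other, the strains differed in nearly every gene. In libraries labelled *Δsaf5*, 47 of the 50 genes were lower than in *Δcwf12* and 0 higher, beside 27.8% and 25.4% of all genes tested. Again 0 were higher at an unadjusted p under 0.05 in edgeR, and 0 in DESeq2. The median was -0.39, beside 0.01 over all genes, and the range -0.82 to -0.09. Both libraries labelled *Δsaf5* lay below both *Δcwf12* libraries in 49 genes, beside 40.2% of all genes, and 0 met the 2-fold rule (4.62% of all genes downward, 3.95% upward). The size of the difference depended on single libraries. The median was -0.36 without replicate 1 of *Δcwf12*, -0.41 without replicate 2 of *Δcwf12* and -0.29 without replicate 1 labelled *Δsaf5*. Over all genes it was 0.02, 0.03 and 0.0053.

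The largest difference was that of *rps2202* (log2 fold change -0.82 ± 0.10, edgeR adjusted p = 3.0e-05), and then came *rps403* (-0.56 ± 0.10), *rps20*, *rps1002* and *rps1802*. *rps20* had 1167 and 1450.2 CPM in libraries labelled *Δsaf5*, 2006 and 1842 in *Δcwf12* and 2005 and 1927 in WT (-0.56 ± 0.12). *rps1002* had 393 and 477 CPM in libraries labelled *Δsaf5*, 668 and 601 in *Δcwf12* and 582 and 587 in WT (-0.54 ± 0.10). *rps1802* had 1261 and 1476 CPM in libraries labelled *Δsaf5*, 2032 and 1950.3 in *Δcwf12* and 1925 and 1943 in WT (-0.54 ± 0.11). For these 3 genes the *Δcwf12* libraries overlapped WT or lay above it, while the libraries labelled *Δsaf5* lay below both. *rps3001* (-0.09), *rps2401* (-0.20) and *rps27* (-0.22) did not pass the test, and among the smallest differences that did was that of *rps1501* (-0.29 ± 0.11). Its call was lost under 5 of the 12 alternatives, among them leaving out replicate 1 labelled *Δsaf5* (-0.16) or either *Δcwf12* replicate (-0.24 and -0.32). *rps1501* had 1019 and 1239 CPM in libraries labelled *Δsaf5*, 1422 and 1348 in *Δcwf12* and 1573 and 1475 in WT.

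The paralogue pairs were then compared as the log2 ratio of counts between both copies in the same library, which needs no scaling between libraries. The copies of the 18 pairs encode proteins that are 80.8% to 100% identical (6 pairs identical), while their coding sequences are 79.1% to 95.1% identical, with a longest identical stretch of 14 to 150 nt. No model was fitted to these ratios, and an exact test of 2 against 2 libraries cannot go below a p of 0.333, so the values of each library are given with no test. The ratios of the libraries labelled *Δsaf5* did not overlap those of WT in 14 of 18 pairs, beside 23 of 29 large-subunit pairs. Those of *Δcwf12* did not overlap WT in 17 of 18, beside 25 of 29 large-subunit pairs. The shifts were small. Their median size was 0.11 on the log2 scale in libraries labelled *Δsaf5* (0.15 for the large-subunit pairs) and 0.15 in *Δcwf12* (0.09 for the large-subunit pairs).

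By the means of the libraries, the largest shift of the 18 pairs was that of Rps26 in both deletions. The log2 ratio of *rps2601* to *rps2602* was -1.38 and -1.37 in libraries labelled *Δsaf5*, -1.44 and -1.33 in *Δcwf12* and -0.88 and -1.12 in WT, a change of -0.38 in libraries labelled *Δsaf5* and -0.39 in *Δcwf12*. Thus *rps2601* gave 27.8% of the pair's counts in libraries labelled *Δsaf5* and 27.7% in *Δcwf12*, against 33.4% in WT (means, n = 2 each). All 4 deletion libraries lay below both WT libraries. Both shifts were taken against the same WT libraries, which lay apart for this pair. The shifts are thus not independent of each other, and their size and rank depend on those libraries. The whole annotated span of each copy overlaps a gene on the other strand, *SPNCRNA.625* for *rps2601* and *SPAC1805.10* for *rps2602*. They had 2.11% and 4.32% as many counts. *SPNCRNA.625* had 151 and 124 counts in libraries labelled *Δsaf5*, 145 and 127 in *Δcwf12* and 64 and 77 in WT. The part of these overlaps in the shift was not tested. For Rps30 the shift favoured *rps3001* over *rps3002*: the log2 ratio was 0.64 and 0.58 in libraries labelled *Δsaf5*, 0.40 and 0.39 in *Δcwf12* and 0.25 and 0.24 in WT. The change was 0.36 in libraries labelled *Δsaf5* and 0.15 in *Δcwf12*, and the strains lay in separate ranges in the order labelled *Δsaf5*, *Δcwf12*, WT. Rps4 showed the same order, with ratios of *rps401* to *rps403* of 0.37 and 0.42 in libraries labelled *Δsaf5*, 0.32 and 0.30 in *Δcwf12* and 0.11 and 0.15 in WT. *rps401* itself had 1638 and 1910.4 CPM in libraries labelled *Δsaf5*, 2506 and 2416 in *Δcwf12* and 2437 and 2329 in WT.

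For Rps28, which contacts the mRNA near the exit, the ratio of *rps2801* to *rps2802* was -0.13 and -0.17 in libraries labelled *Δsaf5*, -0.43 and -0.32 in *Δcwf12* and -0.47 and -0.28 in WT. It changed by 0.22 in libraries labelled *Δsaf5*, while *Δcwf12* overlapped WT. *rps2801* had 438 and 523 CPM in libraries labelled *Δsaf5*, 581 and 618 in *Δcwf12* and 576 and 590.0 in WT, and *rps2802* had 480.1 and 589.6 CPM in libraries labelled *Δsaf5*, 783 and 771 in *Δcwf12* and 795 and 717 in WT. The copies for Rps6 also shifted, with a ratio of *rps601* to *rps602* of 0.15 and 0.10 in libraries labelled *Δsaf5*, 0.15 and 0.16 in *Δcwf12* and 0.29 and 0.29 in WT, a change of -0.16 in libraries labelled *Δsaf5* and -0.13 in *Δcwf12*. *rps601* had 1732 and 1994 CPM in libraries labelled *Δsaf5*, 2482 and 2391 in *Δcwf12* and 2808 and 2635 in WT. *rps602* had 1556 and 1860.0 CPM in libraries labelled *Δsaf5*, 2230.2 and 2134 in *Δcwf12* and 2289 and 2156 in WT. Both copies were thus lower in libraries labelled *Δsaf5*.

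The 5 largest shifts of *Δcwf12* also included those of Rps19 and Rps22. The ratio of *rps1901* to *rps1902* was 1.36 and 1.38 in libraries labelled *Δsaf5*, 1.49 and 1.49 in *Δcwf12* and 1.22 and 1.24 in WT, a change of 0.14 in libraries labelled *Δsaf5* and 0.26 in *Δcwf12*. *rps1901* had 1003 and 1239 CPM in libraries labelled *Δsaf5*, 1626 and 1577 in *Δcwf12* and 1622 and 1511 in WT. For Rps22, the ratio of *rps2201* to *rps2202* was 0.91 and 1.07 in libraries labelled *Δsaf5*, 0.71 and 0.62 in *Δcwf12* and 0.78 and 0.99 in WT. It was lower than WT in *Δcwf12* (-0.22) and overlapped WT in libraries labelled *Δsaf5* (0.11), so that the difference between the deletions, 0.32, was the largest of the 18 pairs. *rps2201*, which has no intron, had 935 and 1135 CPM in libraries labelled *Δsaf5*, 1467 and 1442 in *Δcwf12* and 1399 and 1348 in WT.

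**Figure D4:**
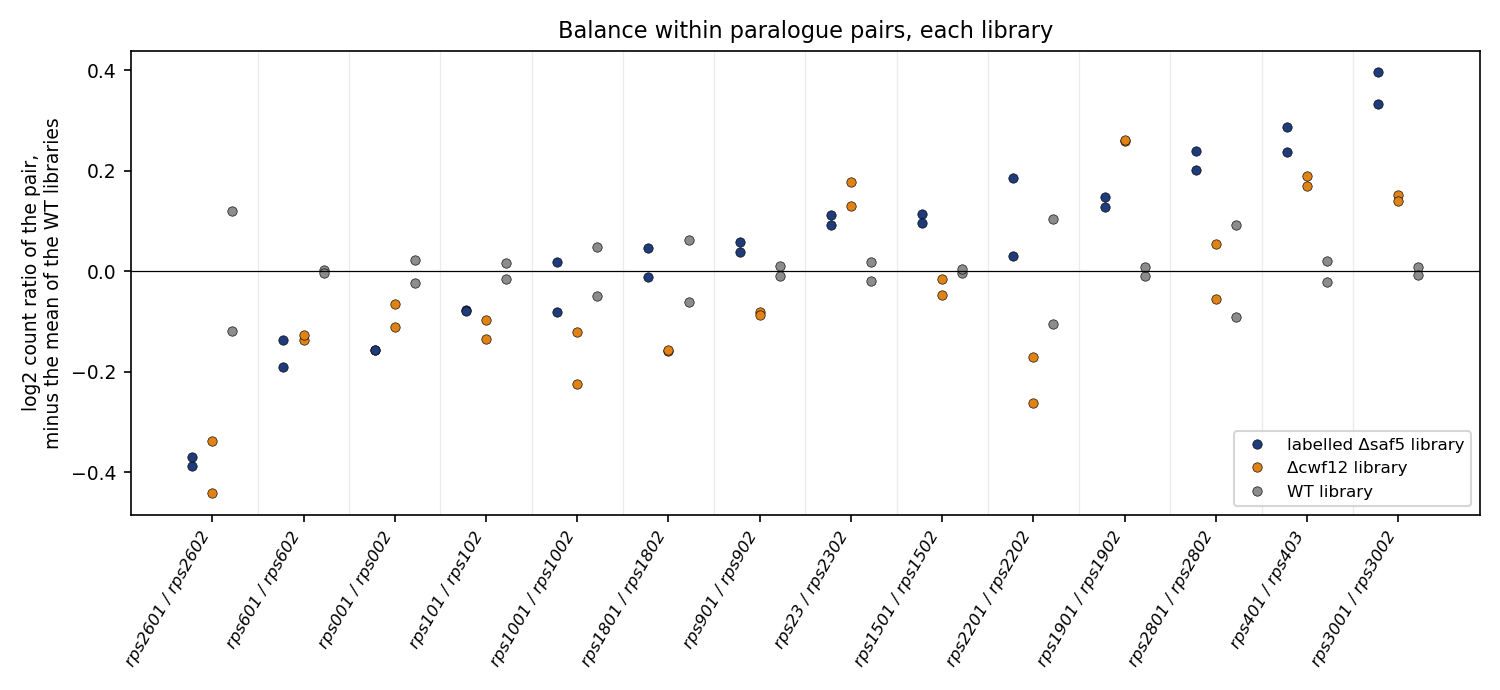
Log2 ratio of counts between both genes of 14 of the 18 pairs in each library, minus the mean of the WT libraries, so that 0 is the WT balance; pairs are ordered by the shift in libraries labelled *Δsaf5*. Dots are single libraries (2 per strain); the *rps2601* to *rps2602* ratio changed by -0.38 in libraries labelled *Δsaf5* and by -0.39 in *Δcwf12*, and the *rps3001* to *rps3002* ratio by 0.36 in libraries labelled *Δsaf5* and 0.15 in *Δcwf12*.

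With the genes outside the list, 8 more pairs could be formed. *cpc2* formed none, and *rps402* was paired with both *rps401* and *rps403*, so the ratios among the Rps4 genes are not independent. Of the 8 pairs, *rps1201* to *rps1202* had the largest shift in libraries labelled *Δsaf5* (0.41), and it changed by 0.17 in *Δcwf12*. The 8 genes themselves were all lower in libraries labelled *Δsaf5* (8 of 8, median -0.48) and none was called in *Δcwf12* (median -0.02). In *Δcwf12* edgeR gave 0 of them a p under 0.05, adjusted or not, DESeq2 gave 0 as well, and the log2 fold changes lay between -0.12 and 0.08. *cpc2*, the fission yeast RACK1 on the subunit's head, had a log2 fold change of -0.57 in libraries labelled *Δsaf5* and -0.04 in *Δcwf12*.

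As both deleted genes act in splicing, the genes with and without an intron were compared. In libraries labelled *Δsaf5*, 23 of 27 genes with an intron and 22 of 23 without were lower, with medians of -0.48 and -0.43. Over all coding genes, 25.8% of those with an intron and 31.5% of those without were lower. The medians over all coding genes were -0.00039 with an intron and -0.05 without. In *Δcwf12* the medians were 0.01 with an intron and -0.04 without for the small-subunit genes, and 0.01 and -0.12 over all coding genes. The median of the small-subunit genes with an intron minus that of those without was -0.05 in libraries labelled *Δsaf5* (0.05 over all coding genes) and 0.05 in *Δcwf12* (0.13 over all coding genes). Of the counts on the 50 genes, those with an intron took 43.3% ± 0.276 in libraries labelled *Δsaf5*, 43.6% ± 0.198 in *Δcwf12* and 43.1% ± 0.0759 in WT (SD, n = 2 each). In 4 pairs a single copy holds an intron, and these did not shift one way. Relative to the copy without an intron, that with one was lower in Rps0 in both deletions, higher in Rps26 in both deletions and higher in Rps22 in *Δcwf12*. In Rps9 it was 0.05 higher in libraries labelled *Δsaf5* and changed by -0.08 in *Δcwf12*, on the log2 scale.

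**Figure D5:**
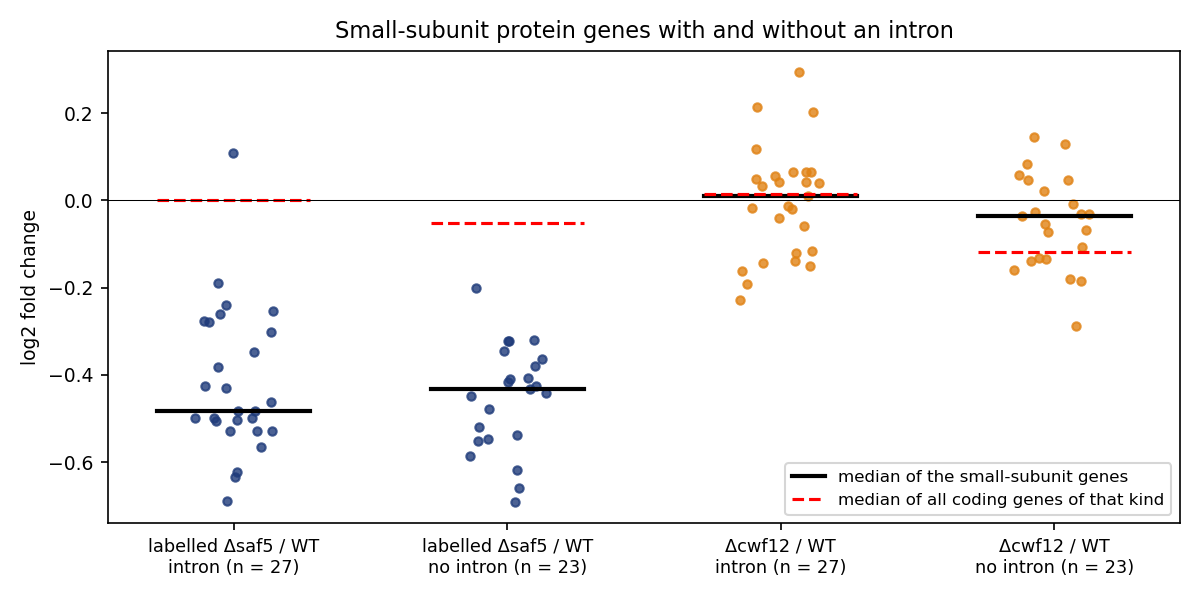
Log2 fold change against WT of the small-subunit genes with an intron (27) and without (23), in libraries labelled *Δsaf5* and in *Δcwf12*. Each dot is a gene, black lines are their medians (-0.48 and -0.43 in libraries labelled *Δsaf5*, 0.01 and -0.04 in *Δcwf12*) and dashed red lines the medians of all coding genes with or without an intron; horizontal scatter is for visibility only.

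The genes were also compared by the exact letters of the promoter boxes, which does not separate promoters with a box from promoters without one, since 15 of the 19 genes that lack the exact HomolD letters hold the 7 letters CAGTCAC. In libraries labelled *Δsaf5*, 26 of 31 genes with the exact HomolD letters and 19 of 19 without them were lower (medians -0.43 and -0.48), as were 17 of 18 with the exact HomolE letters and 28 of 32 without them (medians -0.44 and -0.45). The 5 genes not called all held the exact HomolD letters. In *Δcwf12* the medians were 0.01 with the exact HomolD letters and -0.05 without, and -0.02 both with the exact HomolE letters and without them. Across the 50 genes the log2 fold change of the libraries labelled *Δsaf5* had a Pearson correlation of 0.03 with the WT level per length and -0.32 with the listed length. The genes share their libraries, so these are descriptions only.

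Other parts of the translation machinery were compared by the same fit. In libraries labelled *Δsaf5*, 73 of 83 large-subunit genes were lower and 0 higher (median -0.44), and so were 19 of 26 small-subunit assembly factors (median -0.28), such as *utp10* (-0.51) and *tsr1* (-0.49). Of 43 translation factors, 24 were lower and 1 was higher (median -0.24), with *sce3*, a fission yeast eIF4B-like protein, at -1.05. Of the 29 genes of the mitochondrial small subunit, 6 were higher and 4 lower (20.7% and 13.8%, beside 24.7% and 25.5% of all genes tested), with a median of 0.08. In *Δcwf12*, 4 large-subunit genes were higher and 6 lower (median -0.04), whereas 16 of 26 assembly factors were lower and 0 higher (median -0.23), with *rio2*, a kinase of late 40S maturation, at -0.61. There, 5 translation factors were higher and 4 lower (median -0.02), and 5 mitochondrial genes were higher and 7 lower (17.2% and 24.1%, median -0.05). Over all genes tested, 25.5% were higher and 25% lower in *Δcwf12*.

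Of 10 genes listed by symbol as regulators of ribosomal protein genes and of Rps6, 8 were lower and 0 higher in *Δcwf12* (median -0.40). Among them were *fhl1*, a forkhead factor whose budding yeast relative binds ribosomal protein promoters (-0.69), and *sck2* (-0.63). In libraries labelled *Δsaf5*, 3 of the 10 were lower and 2 higher (median -0.15), with *sck2* at -0.57. *rap1*, listed by its symbol, was one of the 2 higher there (0.27) and was not called in *Δcwf12* (-0.11). Whether each of the 10 regulates these genes in fission yeast was not tested. Of 12 markers of growth arrest and stress, 8 were higher and 3 lower in libraries labelled *Δsaf5* (median 0.55), led by *zym1* (2.63) and *mei2* (1.77), while *tps1* stood at -0.87. In *Δcwf12*, 1 of the 12 was higher and 8 were lower (median -0.88). Beside both lists, 24.7% of all genes tested were higher and 25.5% lower in libraries labelled *Δsaf5*. In *Δcwf12* these shares were 25.5% and 25%. As a share of all counts the 12 took 0.388% and 0.358% in libraries labelled *Δsaf5*, 0.173% and 0.168% in *Δcwf12* and 0.292% and 0.344% in WT. The part of growth state in the small-subunit result was not tested.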

How the data were processed

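RNA of 6 cultures was made into libraries with a stranded mRNA kit and sequenced as paired reads. The authors deposited raw counts for 7268 genes beside a length per gene, obtained with STAR on ASM294v2 and HTSeq (Trimmomatic and DESeq2 are also in the submitters' processing notes). Strand setting and feature type are not given in the sources used here. Of the 50 genes, 20 overlap another listed gene in the annotation, 16 of them only on the opposite strand, and their counts are uncertain to that extent.

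Testing was by edgeR 4.0.16 (R 4.3.3): filterByExpr by strain kept 6018 genes, TMM factors were computed, and a single model with 1 coefficient for each strain took in the 6 libraries (common dispersion 0.00388), followed by quasi-likelihood F-tests with Benjamini-Hochberg adjustment. Alternatives were DESeq2 1.42.0, RLE factors, library totals, TMM without ribosomal protein genes, other filters, only the strains compared, a replicate block and each library left out. On simulated counts for the libraries labelled *Δsaf5* against WT (5889 genes), 43 of 50 genes raised 1.4-fold and 42 of 50 lowered by the same factor were called. Names, introns and sequences came from RefSeq's ASM294v3, which matched 6846 of 7268 identifiers and all 50 genes. Sequences were aligned with Biopython 1.88.

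In each comparison, the 5 highest and 5 lowest log2 fold changes and the 5 pairs with the largest shift were named with their values, except that 8 of the 50 genes are counted in the totals over the 50 genes and 18 pairs but are not reported here singly, nor are their pairs. The members and lists were chosen with earlier results of these data known. The 2 cultures of a strain are biological replicates per the study's methods.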

Additional observations from a re-analysis of the deposited data

Results flagged for a closer look

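For 6 of the singly reported genes among the 5 highest and 5 lowest of the direct comparison, the response to one deletion differed from that to the other in edgeR's contrast of both strains (adjusted p under 0.05). The genes were picked by their values in this same contrast, so its p is no separate support. In it 47 of the 50 genes were lower and 0 higher, beside 27.8% and 25.4% of all genes tested. The log2 fold change of the libraries labelled *Δsaf5* minus that of *Δcwf12* was -0.82 for *rps2202*, -0.56 for *rps403*, -0.56 for *rps20*, -0.54 for *rps1002* and -0.54 for *rps1802*. It was -0.29 for *rps1501*. *rps2202* was the one of the 6 that was lower than WT in the libraries labelled *Δsaf5* and higher than WT in *Δcwf12*, with both calls past the threshold. No group held the 4 samples that a check for outlying samples needs.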

How the results depend on the processing

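Under DESeq2, RLE factors, TMM without ribosomal protein genes, no filter and at least 10 counts in every library, the counts of calls in all 3 comparisons stayed within 1.5 times those reported. Under library totals, which moved the median of all genes to 0.17 in libraries labelled *Δsaf5* against WT and 0.16 in libraries labelled *Δsaf5* against *Δcwf12*, libraries labelled *Δsaf5* against WT gave 1 gene higher (*rps3001*) and a median of -0.30 (-0.34 with an intron, -0.29 without), *Δcwf12* against WT gave 2 lower, and libraries labelled *Δsaf5* against *Δcwf12* gave 31 lower and a median of -0.24 (-0.25 with an intron, -0.22 without). A 2-fold minimum left 0 calls in every comparison. With only the strains compared in the fit, *Δcwf12* against WT gave 3 genes higher and 4 lower. Pairs completed with genes outside the list were an alternative chosen after seeing the data. With them, 23 of 26 did not overlap between the deletions, beside 15 of 18 listed pairs and 20 of 29 large-subunit pairs. The 26 include every ratio among the Rps4 genes, which are not independent.

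Leaving out single libraries assumes that the lone library varies like the others. It moved the count of lower genes between 33 and 49 in libraries labelled *Δsaf5* against WT and between 18 (without *Δcwf12* replicate 1) and 49 in libraries labelled *Δsaf5* against *Δcwf12* (medians -0.52 to -0.29). In *Δcwf12* against WT, the higher genes were 0 without either *Δcwf12* replicate or WT replicate 2 and 1 otherwise, the lower genes ran from 0 (without *Δcwf12* replicate 2) to 4 (without WT replicate 2), and the median from -0.071 to 0.0056. Signs turned for *rps3001* in libraries labelled *Δsaf5* against WT (-0.025 to 0.23, negative without replicate 2 labelled *Δsaf5*) and in libraries labelled *Δsaf5* against *Δcwf12* (0.053 under library totals, and -0.23 to 0.028, positive without replicate 1 labelled *Δsaf5*), and for *rps1901* in *Δcwf12* against WT (-0.030 to 0.082, negative without WT replicate 2). The cause was not tested. With the replicate number as a block, 40 genes were lower in libraries labelled *Δsaf5* against WT and 40 in libraries labelled *Δsaf5* against *Δcwf12*, and 1 was higher and 1 lower in *Δcwf12* against WT. Correlations of the deviations of same-numbered libraries over all genes were 0.052 (libraries labelled *Δsaf5* and WT), 0.0034 (*Δcwf12* and WT) and -0.015 (libraries labelled *Δsaf5* and *Δcwf12*), so the numbers were not taken as pairs. Of the named genes' values, 170 of 192 in libraries labelled *Δsaf5* against WT, 178 of 192 in *Δcwf12* against WT and 177 of 204 in libraries labelled *Δsaf5* against *Δcwf12* kept direction and side of the threshold. The 2 libraries per strain limit the precision of every value.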
